A study of Mus musculus with 4 samples.

Results

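Interferon-stimulated genes are the genes whose transcription rises when a cell meets interferon. They were followed here as a set of 47 named mouse genes in cultured keratinocytes, the epithelial cells of the epidermis. The cells were labelled wild type or deficient in the glucose transporter Glut1. The genes were named by symbol, with earlier results of these data known. A gene counted when the array annotation gave it a row with no other symbol. By that rule 43 of the 47 had a value, among 22180 named genes on the array. Of the other 4, Oas1a, Gbp2 and Dtx3l share their row with another symbol, and Ifi44 was matched to no row. The 43 comprise 30 antiviral effectors, 5 genes that sense viral nucleic acid or assist in it, 5 STAT and IRF transcription factors and 3 genes of the receptor and its feedback.

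The cells came from 1-week-old C57BL/6J mice, 4 per genotype. Wild-type mice carried floxed Glut1 alleles (Glut1 fl/fl). Glut1-deficient mice carried the same floxed alleles together with Cre under the promoter of keratin 14, which is active in basal keratinocytes. By these labels only the deficient mice had Cre, so the presence of Cre and the loss of Glut1 cannot be told apart. After 3 days the cells were reseeded at equal number and after 1 further day 2 plates of a genotype were combined, which gave 2 arrays per genotype. Lysates were made from 1500000 cells per wild-type sample and 1000000 per deficient sample, a difference that cannot be told apart from genotype. The labels name hydrocortisone, insulin, epidermal growth factor and pituitary extract as additions to the medium, and no interferon or virus.

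Values are log2 intensities from MoGene 2.0 arrays, with array medians over the tested genes from 4.75 to 4.77. Precision is limited by the number of arrays. Keratinocyte identity was checked on Krt14, a basal keratin, which read 12.54 and 12.56 on the wild-type arrays and 12.15 and 12.21 on the others, while the row of the basal keratin Krt15 read 2.67 to 3.27. The brighter row of Slc2a1, the gene of Glut1, read 11.09 ± 0.056 (SD, n = 2) in wild type and 11.01 ± 0.0028 (SD, n = 2) under the deficient label, with a limma adjusted p over all rows of 0.757. A dimmer Slc2a1 row read 5.18 and 5.10 against 4.80 and 4.44, lower by a log2 difference of -0.52 (adjusted p = 0.247 in limma with every row tested, unadjusted p = 0.0256). The rows thus do not settle the deletion. Deleted exons and probe positions are not known from the sources used here, and the genotype is therefore named by its label in every direction given. In bulk RNA, fewer cells of a type and less RNA per cell cannot be told apart.

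Type I interferons bind a receptor made of Ifnar1 and Ifnar2. Its kinases activate STAT proteins, and Stat2 and Irf9 are parts of the complex ISGF3, which binds the interferon-stimulated response element (ISRE) in the promoters of effector genes. Interferon gamma acts through a different motif, the gamma-activated site (GAS). Cells also make interferon on their own after cytosolic helicases or Toll-like receptors detect viral RNA or DNA. Keratinocytes hold this machinery and are known as a source of interferon kappa, the product of Ifnk.

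Arrays labelled Glut1-deficient had lower values for most interferon-stimulated genes, and the falls took in effectors, a sensor and a transcription factor. A gene is said to have fallen or risen when limma's Benjamini-Hochberg adjusted p over all 22180 genes was under 0.05. Of the 43 members, 9 fell, against 1.05% of all genes. They were Apol9b, Isg15, Oasl2, Cmpk2, Parp14, Ifitm3, Xaf1, Ifih1 and Irf1. None rose, against 1.79% of all genes (limma, 0 members higher at unadjusted p under 0.05). With an unmoderated statistic, 0 of the 22180 genes passed in either direction, the 9 members included. At unadjusted p under 0.05 in that statistic 15 members were lower and 0 higher, beside 1802 and 1844 of all genes. The log2 fold change was negative for 38 members and positive for 5, beside 51.6% negative among all genes. At unadjusted p under 0.05, 25 members were lower in limma, against 11.2% of all genes, and 0 were higher, against 11.0%. The median log2 fold change was -0.45 over the members and -0.0074 over all genes. On 30 members both deficient arrays lay below both wild-type arrays, an order that 27.7% of all genes showed, and on 2 (Oas2 and Ifnar1) both lay above, as on 25.5% of all genes. The remaining 11 overlapped.

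These calls rest on 4 arrays. On any 3 arrays 1 genotype has a single array and 1 residual degree of freedom is left. None of the 9 calls was kept there, while the member median stayed between -0.49 and -0.40. Of the 9 calls, Ifih1 (adjusted p = 0.0488) and Irf1 (adjusted p = 0.0498) lay nearest the limma threshold, and Parp12 (0.0536), Irf9 (0.0575) and Eif2ak2 (0.0583) lay just beyond it. With an intensity trend in limma the count was 23, and 5.98% of all genes fell. The member count was 0 with each of the 41345 rows as its own test, where 0 of the 22180 genes passed. At unadjusted p under 0.05 in that limma fit, 24 members were lower, beside 1916 of the 22180 genes.

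**Figure D1:**
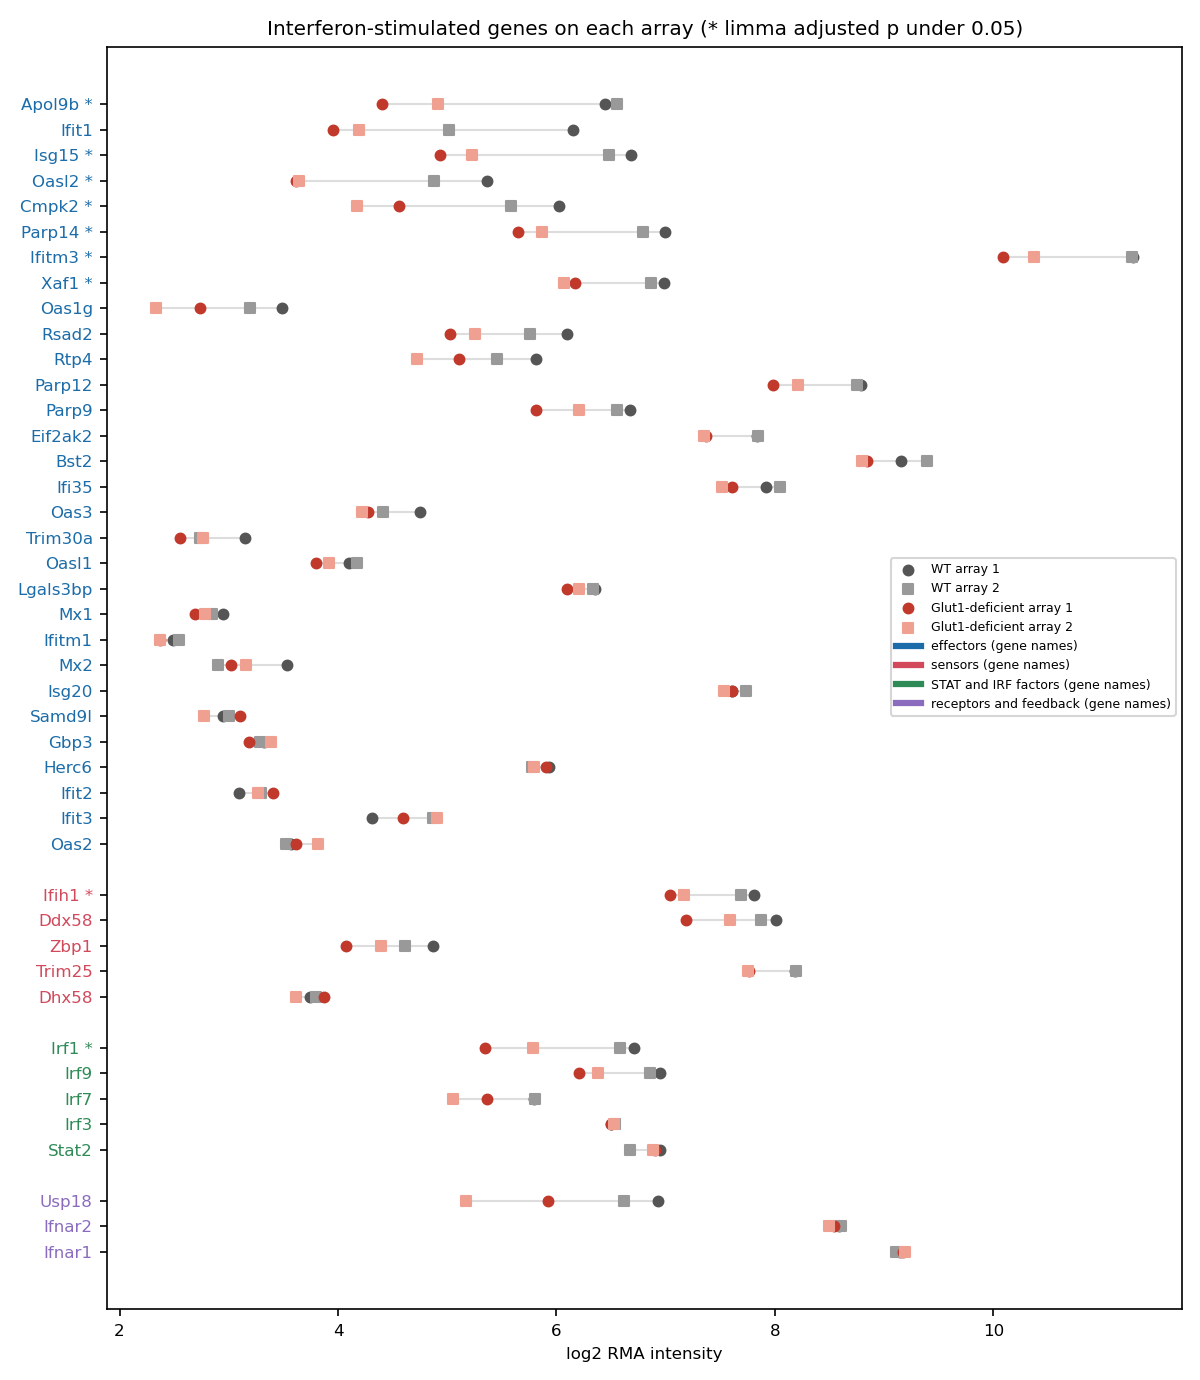
Log2 RMA intensity (x axis) of the 43 interferon-stimulated genes (y axis, grouped by role and ordered by log2 fold change) on each of the 4 arrays, with 1 symbol per array. Stars mark the 9 genes past the test; for those, both red symbols lie to the left of both grey ones, whereas the symbols of Ifit3, Herc6 and Irf3 overlap.

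Promoters of 5 members are shown because each carries a match to the ISRE or the GAS and because the genes behind them did not move alike. Apol9b, Isg15 and Irf1 fell, Ifit1 was lower but did not pass, and its neighbour Ifit3 was not shown to differ. Each line gives the 200 bases before the transcription start on the gene's own strand, 5′ to 3′, from RefSeq (GRCm38.p6). Capitals mark the ISRE core, taken here as 2 copies of GAAA with any 2 bases between them (TTTC, 2 bases and TTTC when it lies on the opposite strand), or the GAS core, TTC and GAA with any 3 bases between them, which reads the same on both strands.
Isg15: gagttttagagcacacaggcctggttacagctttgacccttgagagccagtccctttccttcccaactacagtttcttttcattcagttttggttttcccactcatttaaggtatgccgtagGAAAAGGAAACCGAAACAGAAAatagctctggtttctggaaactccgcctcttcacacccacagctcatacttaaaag
Apol9b: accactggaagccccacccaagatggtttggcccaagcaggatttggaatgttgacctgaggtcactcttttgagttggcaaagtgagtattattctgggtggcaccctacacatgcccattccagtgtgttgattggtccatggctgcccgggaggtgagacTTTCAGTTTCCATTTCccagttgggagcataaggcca
Ifit1: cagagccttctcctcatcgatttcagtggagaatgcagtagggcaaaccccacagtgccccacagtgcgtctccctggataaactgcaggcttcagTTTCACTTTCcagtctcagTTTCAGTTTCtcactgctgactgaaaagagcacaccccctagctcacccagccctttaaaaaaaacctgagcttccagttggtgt
Ifit3: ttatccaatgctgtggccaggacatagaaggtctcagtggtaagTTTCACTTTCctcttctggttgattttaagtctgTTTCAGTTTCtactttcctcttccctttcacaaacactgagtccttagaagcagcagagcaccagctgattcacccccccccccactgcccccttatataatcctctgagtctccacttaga
Irf1: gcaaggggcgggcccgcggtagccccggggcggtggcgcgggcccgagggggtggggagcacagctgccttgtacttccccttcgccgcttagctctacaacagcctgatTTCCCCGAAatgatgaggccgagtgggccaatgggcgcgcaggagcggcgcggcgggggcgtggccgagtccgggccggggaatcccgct
The windows are chr4:156200819-156201018 (minus strand), chr15:77728872-77729071 (plus), chr19:34640689-34640888 (plus), chr19:34583329-34583528 (plus) and chr11:53769814-53770013 (plus). Isg15 held 3 ISRE cores that overlap each other, the first 78 bases before the start. Apol9b held 2 overlapping cores, Ifit1 2 separate ones at 104 and 85 bases and Ifit3 2 separate ones at 156 and 122 bases before the start. Irf1 held no ISRE core here and 1 GAS core 90 bases before the start. Apol9b and Irf1 have 2 listed starts each, and 1 is shown.

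Over windows of 300 bases (250 before to 50 after the start), an ISRE core was found for 17 of the 38 members with a listed window (44.7%), and for 3.99% of all 27025 genes with one. A GAS core was found for 10 of the 38 members (26.3%) and 9.55% of all genes. The search took both strands, and a base could belong to several matches, as in Bst2, where the motifs overlap. Among members with a window and a value, the 15 with an ISRE core had a median log2 fold change of -0.55 and 4 fell, and the 19 without had a median of -0.28 and 4 fell. The 9 with a GAS core had a median of -0.42 and 2 fell, and the 25 without had a median of -0.55 and 6 fell. A match is a run of letters and no proof of a bound site.

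Among the effectors, Isg15, a ubiquitin-like protein that is secreted and also attached to other proteins, read 6.68 and 6.48 on the wild-type arrays and 4.93 and 5.23 on the deficient ones. The groups were apart by more than the spread within either, and Isg15 was 2.83-fold lower (log2 fold change -1.50, SE 0.141; limma adjusted p = 0.0211). Apol9b, an apolipoprotein L gene of the mouse, had the largest fall of the set. It read 6.44 and 6.56 in wild type and 4.40 and 4.92 on the deficient arrays, 3.58-fold lower (log2 fold change -1.84, SE 0.188; limma adjusted p = 0.0249). Oasl2 belongs to the oligoadenylate synthetase family, which answers double-stranded RNA. It read 5.36 and 4.88 against 3.62 and 3.64, with the deficient arrays nearly equal, and was 2.81-fold lower (limma adjusted p = 0.0306). Cmpk2, a mitochondrial nucleotide kinase, read 6.02 and 5.58 against 4.55 and 4.17, which was 2.71-fold lower (limma adjusted p = 0.0419).

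The other 3 effectors that fell have roles in ADP-ribosylation, virus entry and cell death. Parp14, an ADP-ribosyltransferase, read 7.00 and 6.79 in wild type and 5.65 and 5.87 on the deficient arrays. It was 2.20-fold lower (limma adjusted p = 0.0285). Ifitm3, a membrane protein that blocks the fusion of viruses in endosomes, read 11.28 and 11.27 against 10.09 and 10.37. Its wild-type arrays were almost identical (SD 0.0062, n = 2) and it was 2.07-fold lower (limma adjusted p = 0.0302). Xaf1, which promotes apoptosis by opposing the inhibitor XIAP, read 6.98 and 6.87 against 6.17 and 6.07, 1.75-fold lower (limma adjusted p = 0.0318).

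The other 23 effectors did not pass, and their log2 fold changes ran from -1.51 (Ifit1) to 0.17 (Oas2). Ifit1, which binds viral RNA lacking a host cap, read 6.15 and 5.01 on the wild-type arrays and 3.95 and 4.19 on the deficient ones. Its fold change was as large as that of Isg15, but the wild-type arrays stood apart (SD 0.805, n = 2), the largest wild-type spread of the set, and limma's adjusted p was 0.109. With wild-type array 1 or 2 left out the log2 fold change was -0.94 or -2.08. Parp12, another ADP-ribosyltransferase, had a log2 fold change of -0.67, Rsad2 (viperin) of -0.79, Rtp4, a receptor transporter that restrains virus replication, of -0.71, and Eif2ak2, the RNA-activated kinase PKR that stops translation, of -0.48. In all of these both deficient arrays were the lower ones. Bst2 (tetherin), which holds budding virions at the cell surface, had a log2 fold change of -0.45 and Ifi35 one of -0.42.

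Several well-known effectors were not shown to differ. Ifit2 read 3.10 and 3.29 against 3.41 and 3.27, Ifit3 4.31 and 4.87 against 4.60 and 4.91, and Herc6 5.93 and 5.77 against 5.90 and 5.79. The 95% intervals of these differences ran from -0.15 to 0.43, from -0.41 to 0.73 and from -0.27 to 0.26, so a fall of the size of Isg15 lay outside each. The row of Ifit2 was dim (percentile 25.9 of mean level over all genes), and whether such a fall could be read there was not tested. Isg20, an exonuclease that degrades RNA, had a log2 fold change of -0.10, and Gbp3, a GTPase of the guanylate-binding family, of -0.020. Mx1 and Mx2, dynamin-like GTPases that trap incoming viruses, had log2 fold changes of -0.16 and -0.13. Both are transcribed pseudogenes in the reference gene table of C57BL/6J, and their rows read 2.69 to 2.95 and 2.90 to 3.53. Several rows without a difference lie at such low intensities, and no limit of detection per row was available.

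Log2 fold changes of members that lie next to each other in the genome were not always alike. Within 5 gene positions of each other, 17 members form 8 groups. Rsad2 and Cmpk2, direct neighbours on chromosome 12, had log2 fold changes of -0.79 and -1.44, and Parp14 and Parp9 on chromosome 16 had -1.14 and -0.60, each pair in the same direction. On chromosome 19, Ifit1 stood at -1.51 beside Ifit2 at 0.14 and Ifit3 at 0.16. On chromosome 5, Oasl2 stood at -1.49 beside Oasl1 at -0.28, and on chromosome 7 Ifitm3 at -1.05 beside Ifitm1 at -0.15. These are paralogues whose transcripts are similar, and how far probes cross-hybridise was not tested. Mean levels of Ifitm1, Ifit2 and Oasl1 were low, at percentiles 7.0, 25.9 and 40.1 of all genes. Oasl2 stood at 45.5, Ifit3 at 49.1, Ifit1 at 50.8 and Ifitm3 at 98.6. Whether a fall could be read in the dim rows was not tested. No difference between neighbours was tested.

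The conjugation system of Isg15 was covered across roles. Ube2l6, the conjugating enzyme for Isg15 and not a member, read 6.75 and 6.65 in wild type and 5.80 and 5.77 on the deficient arrays, 1.88-fold lower (limma adjusted p = 0.0223). Usp18 removes Isg15 from its targets and also restrains the interferon receptor. It read 6.93 and 6.62 against 5.93 and 5.17, for a log2 fold change of -1.23 (SE 0.272), which missed the threshold (limma adjusted p = 0.0908). The activating enzyme Uba7, chosen for mention after its values were seen, read 3.73 and 3.67 against 3.53 and 3.58. Its log2 fold change was -0.15, and that of Herc6, the main mouse ligase for Isg15, was -0.0075. The row of Uba7 was dim (percentile 33.5 of mean level over all genes), and whether a fall could be read there was not tested. The modifier and its conjugating enzyme fell, and the first and last enzyme of the chain did not pass.

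Of the 5 sensor genes, 1 fell, 0 rose and 4 did not pass (limma, 4 lower and 0 higher at unadjusted p under 0.05). Over all genes, 1.05% fell and 1.79% rose, and at unadjusted p under 0.05 in limma 11.2% were lower and 11.0% higher. Ifih1 (MDA5), a helicase that detects long double-stranded RNA, read 7.81 and 7.69 in wild type and 7.04 and 7.16 on the deficient arrays, 1.57-fold lower (log2 fold change -0.65, SE 0.0999). Ddx58 (RIG-I), which detects short RNA with a triphosphate end, read 8.01 and 7.87 against 7.19 and 7.59, for a log2 fold change of -0.55 (not past the test; limma adjusted p = 0.138). Trim25, a ubiquitin ligase that acts with RIG-I, read 8.19 and 8.20 against 7.76 and 7.75. Its arrays agreed closely within each genotype, and its log2 fold change was -0.43 (limma adjusted p = 0.0688). Zbp1, a sensor of left-handed nucleic acid, read 4.87 and 4.61 against 4.07 and 4.39 (log2 fold change -0.51). Dhx58 (LGP2), the third helicase of the RIG-I family, read 3.74 and 3.80 against 3.87 and 3.62, and its groups overlapped.

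Of the 5 transcription factors, 1 fell, 0 rose and 4 did not pass (limma, 3 lower and 0 higher at unadjusted p under 0.05). The shares over all genes were 1.05% and 1.79%, and at unadjusted p under 0.05 in limma 11.2% lower and 11.0% higher. Irf1, which responds to interferon gamma and also drives basal antiviral genes, read 6.71 and 6.58 in wild type and 5.35 and 5.79 on the deficient arrays. It was 2.11-fold lower (log2 fold change -1.08, SE 0.167). Irf9, the DNA-binding part of ISGF3, read 6.95 and 6.86 against 6.20 and 6.38, a log2 fold change of -0.61. Irf7, the interferon-induced factor that amplifies interferon production, read 5.80 on both wild-type arrays against 5.36 and 5.05, with a log2 fold change of -0.59 and a limma adjusted p of 0.0875. These 3 genes all had both deficient arrays below both wild-type arrays. The pair that did not follow comprised Stat2, the partner of Irf9, at 6.95 and 6.67 against 6.90 and 6.88, and Irf3, which is activated by phosphorylation rather than induced, at 6.50 and 6.53 against 6.50 and 6.53. The 95% interval of the difference ran from -0.23 to 0.39 for Stat2 and from -0.22 to 0.21 for Irf3.

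The receptor genes differed little. Ifnar1 read 9.14 and 9.11 in wild type and 9.17 and 9.19 on the deficient arrays, and the 95% interval of its log2 fold change ran from -0.16 to 0.27. Ifnar2 read 8.58 and 8.61 against 8.54 and 8.49, with an interval from -0.30 to 0.14. Neither interval reaches the fall of Isg15, Irf1 or Ifih1. In the wider list of interferons, receptors and signalling genes, 0 of 22 tested genes passed (limma, 3 lower and 2 higher at unadjusted p under 0.05), with a median of -0.041. Its smallest p-values belonged to Irf2bp2, a corepressor (log2 fold change 0.49), Socs3, a feedback inhibitor of cytokine receptors (-0.45), and the interferon gamma gene Ifng (-0.34, at 3.20 to 3.61 on all arrays). Named after their values were seen, the interferon genes Ifnb1 and Ifnk had log2 fold changes of 0.13 and -0.14 at intensities of 2.62 to 3.09 and 2.69 to 2.96, and the receptor kinases Jak1 and Tyk2 had -0.20 and -0.089.

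Set side by side over all members with a value, effectors and the upstream genes differed little in their centre. The 30 effectors had a median log2 fold change of -0.44 with 7 falls and a range from -1.84 to 0.17. The 10 sensors and STAT and IRF factors had a median of -0.53 with 2 falls and a range from -1.08 to 0.082. Over all genes 1.05% fell. Sensors alone stood at -0.51 and the factors alone at -0.59. Among genes above the median level, the medians were -0.71 for 17 effectors, -0.55 for 3 sensors and -0.59 for 5 factors. The order of roles thus depended on the levels taken in. The 4 largest falls, those of Apol9b, Isg15, Oasl2 and Cmpk2, were among effectors. With 10 genes against 30 and 2 arrays per genotype no test of the difference between roles was made. Relative to the wild-type mean, the effector median was -0.41 and -0.43 on the deficient arrays, that of the sensors -0.67 and -0.35, and that of the factors -0.44 and -0.52. Wild-type arrays lay within 0.061 of their mean in these 3 groups. The order of roles also depended on single arrays. Without deficient array 1 the sensor median was -0.35 and the effector median -0.43, and without deficient array 2 they were -0.67 and -0.41.

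**Figure D2:**
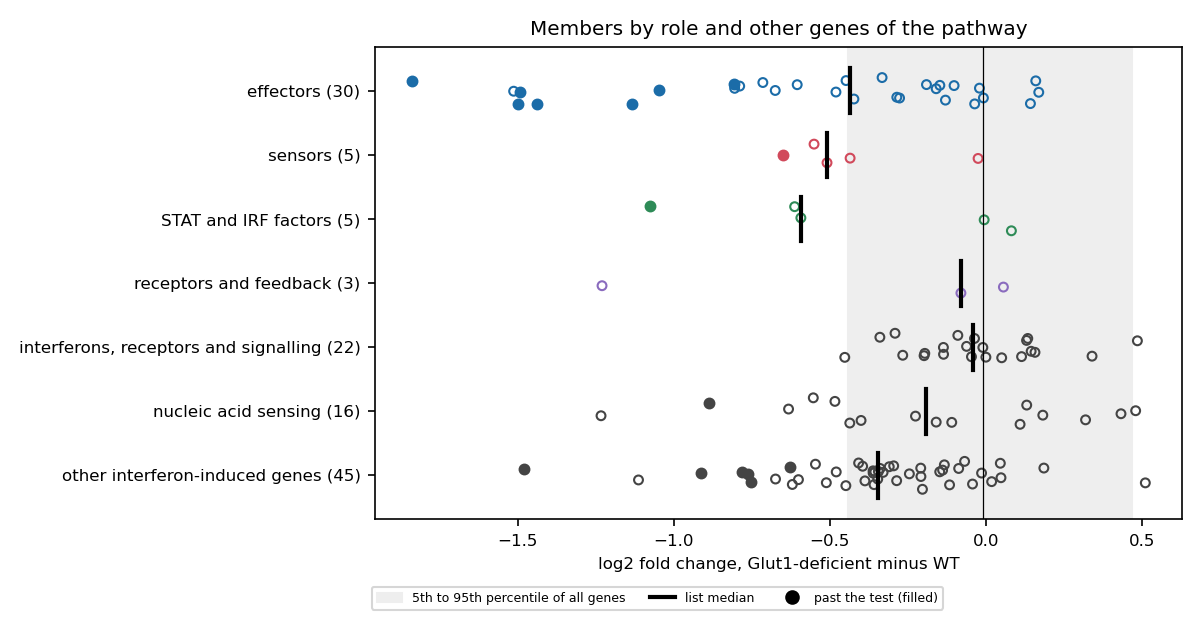
Log2 fold change (Glut1-deficient minus WT, x axis) of each gene by role (coloured) and of other genes of the pathway (grey), with the number of genes tested in brackets, list medians as bars and the 5th to 95th percentile of all genes shaded. Filled points passed the test; effectors, sensors and factors centre between -0.44 and -0.59, the signalling list at -0.041.

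The array gives other genes of the pathway as a comparison. Over all genes, 1.05% fell and 1.79% rose. At unadjusted p under 0.05 in limma, 11.2% of all genes were lower and 11.0% higher. Of 45 tested interferon-induced genes outside the set, 6 fell and 0 rose (limma; 20 lower and 0 higher at unadjusted p under 0.05), with a median of -0.34. Besides Ube2l6 they were Cxcl10, a T cell chemokine (2.79-fold lower), Ly6e, a surface protein that blocks coronavirus entry (1.72-fold), Plscr1, a phospholipid scramblase (1.70-fold), Mov10, an RNA helicase (1.69-fold), and Ifi27 (1.54-fold). Of 16 tested genes of nucleic acid sensing, 1 fell and 0 rose (limma; 7 lower and 2 higher at unadjusted p under 0.05), with a median of -0.19. It was Tlr3, the endosomal receptor for double-stranded RNA, which read 7.91 and 7.94 in wild type and 6.90 and 7.17 on the deficient arrays (1.85-fold lower; limma adjusted p = 0.0394). Samhd1, a nucleotide hydrolase, and Myd88, the adaptor of most Toll-like receptors, had log2 fold changes of -0.55 and -0.48 that did not pass. The interferon-induced genes outside the set had the same sign of median as the members. The median of the signalling list lay near that of all genes. These lists were chosen with earlier results of these data known and were read on the same arrays as the members. They are therefore no independent check of the members.

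**Figure D3:**
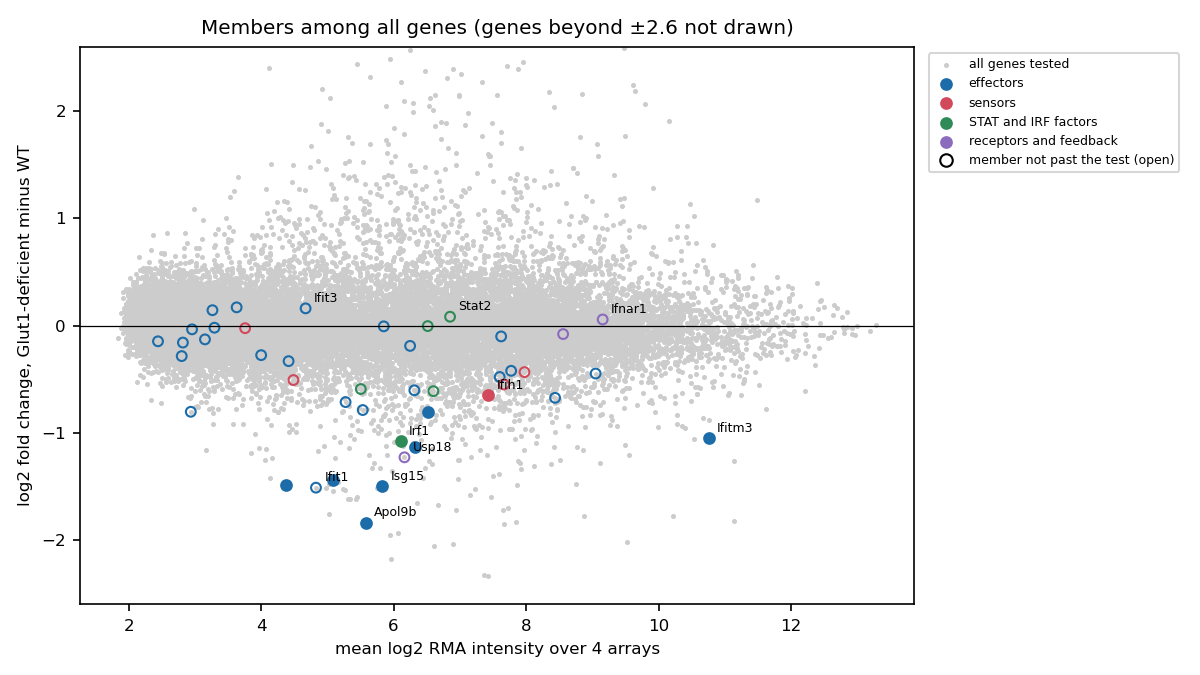
Log2 fold change (y axis) against mean log2 intensity over the 4 arrays (x axis) for the genes tested (grey; those beyond the axis are not drawn) and the 43 members (coloured by role, filled where the test was passed). Most members lie below 0 over the whole range of intensities, with Apol9b lowest, and Ifnar1, Stat2 and Ifit3 lie at or above 0.

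Markers of other cell types moved on the same arrays. Over all genes, both deficient arrays lay above both wild-type arrays for 25.5%, and 1.79% rose. At unadjusted p under 0.05 in limma, 11.2% of all genes were lower and 11.0% higher. Fibroblast markers had 9 of 9 tested genes higher and 8 with both deficient arrays above both wild-type arrays, and their summed linear intensity was 548 to 639 in wild type and 1304 to 2460 on the deficient arrays (limma, 0 of 9 past the test, 8 at unadjusted p under 0.05). Melanocyte markers rose in 4 of 7 cases, with sums of 350 to 442 and 922 to 1003. Keratinocyte markers were lower in 7 of 9 cases, with 0 past the test (limma, 6 lower and 1 higher at unadjusted p under 0.05), and their sums were 20149 to 20339 and 16341 to 17430. The part of these shifts in the result was not tested. The deficient array with the higher fibroblast sum had a member median of -0.43 against the wild-type mean, and the array with the lower sum one of -0.40. In the same order the medians were -0.41 and -0.43 for effectors, -0.67 and -0.35 for sensors and -0.44 and -0.52 for factors. Among the members that fell, Isg15, Apol9b, Parp14, Ifitm3, Oasl2, Ifih1 and Irf1 read lower on the array with the higher sum. Xaf1 and Cmpk2 read lower on the other.

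Immune cells also express interferon-stimulated genes. Of 12 macrophage and dendritic cell markers 0 passed (limma, 3 lower and 0 higher at unadjusted p under 0.05). Their summed intensity was 497 to 504 in wild type and 463 to 471 on the deficient arrays. The defining markers Ptprc and Adgre1 read 2.78 to 3.29 and 2.70 to 2.93, and Cd68, on which the sum largely rests, 8.16 to 8.24 on all arrays. The 3 lower markers were Cd14, a receptor for bacterial lipopolysaccharide that read 6.14 and 6.32 in wild type and 5.09 and 5.50 on the deficient arrays (log2 fold change -0.93; limma adjusted p = 0.0599), the lysozyme gene Lyz2 (-0.56) and the growth factor receptor Csf1r (-0.29). The part of these genes in the result was not tested. None of 4 Langerhans, 5 T cell and 5 plasmacytoid or B cell markers tested passed (limma; at unadjusted p under 0.05, 1 lower and 1 higher, 0 and 2, and 1 and 0). Their sums were 3802 to 3854 against 3262 to 3395, 73 to 75 against 95 to 114 and 671 to 764 against 542 to 578, where the Langerhans sum rests largely on Epcam, also a keratinocyte gene, and the last on Bst2, a member. The higher T cell sum goes with Thy1, also on the fibroblast list, at 5.01 and 4.95 against 6.12 and 5.68, while Cd3e and Cd2 had log2 fold changes of -0.023 and 0.018. Endothelial markers had 1 rise of 5, that of Kdr, and sums of 110 to 112 and 256 to 275. Suprabasal keratinocyte markers had 1 rise and 1 fall of 7, with sums of 505 to 521 and 476 to 505. Robust multiarray values do not reach 0, so no marker was listed at 0.

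**Figure D4:**
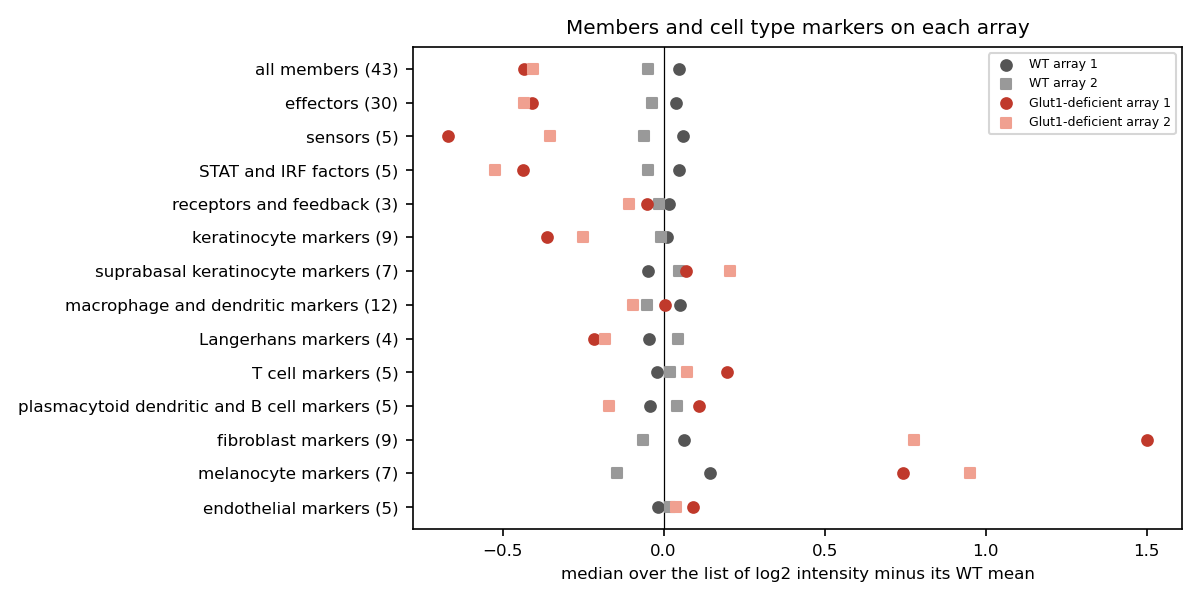
Median over each list of the log2 intensity minus that gene's wild-type mean (x axis), for the members, their roles and marker lists of cell types (y axis, number tested in brackets), with 1 symbol per array. Members lie at -0.43 and -0.40 on the deficient arrays, fibroblast markers at 1.50 and 0.78, and macrophage and dendritic markers near 0.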

How the data were processed

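RNA from cultured keratinocytes was hybridised to MoGene 2.0 arrays. The deposited values are log2 intensities per transcript cluster, for which the authors used RMA in Affymetrix Expression Console (per the submitters' processing notes, where no roles are stated). Versions and genome build: not given in the sources used here. RMA sets all arrays to a common distribution, so changes are relative to other genes. Of 41345 rows, 23521 had exactly 1 symbol, 1814 several and 16010 none in the platform annotation. The brightest row stood for a gene with several.

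Genotypes were compared with limma 3.58.1 in R 4.3.3 (lmFit, eBayes without trend, two-sided, deficient minus wild type). P-values were adjusted by Benjamini-Hochberg across 22180 genes. The fit was tested on simulated data. An exact permutation of 2 against 2 arrays cannot go below p = 0.333. Each array pools 2 plates, so p-values reflect only how such pools vary. Members and lists were chosen with earlier results of these data known. Arrays were given for each member past the test and for up to 4 members per role with the smallest p, and for some others as comparison. Genes outside the set were named when past the test, among the 3 smallest p of a list, or as stated. Promoter windows came from RefSeq (GRCm38.p6). Replicate numbers did not pair the arrays. Alternatives are given in the closing part.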

Additional observations from a re-analysis of the deposited data

How the results depend on the processing

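The 9 falls rest on how the variance was estimated. All 9 were kept, and 14 more members fell (23 in all), with an intensity trend in limma, plain or robust. The counts over all genes were then 1327 falls and 1344 rises, or 1361 and 1368 with robust estimation, in place of 233 and 397. Among genes above the median level, 19 of 28 members fell (1113 falls and 1214 rises over all genes), and the medians were -0.61 for members and -0.71 for effectors. With a pooled-variance statistic without moderation and with all rows tested separately, 0 members and 0 genes passed in either direction. At unadjusted p under 0.05 in these 2 settings, 15 and 24 members were lower, beside 1802 and 1916 of the 22180 genes. With the replicate number as a block, 0 members passed, with 5 falls and 32 rises over all genes. At unadjusted p under 0.05 in that limma fit, 26 members were lower, beside 2159 of the 22180 genes. Deviations of same-numbered arrays had a correlation of -0.025, so the numbers were not taken as pairs. With 1 array left out, counts were 0 to 0 for members and for all genes, the effector median ran from -0.49 to -0.41, that of sensors from -0.67 to -0.35 and that of STAT and IRF factors from -0.59 to -0.44. The log2 fold change of Stat2, 0.082 on all arrays, ran from -0.055 (without wild-type array 2) to 0.22. The effector median was -0.39 with the mean of a gene's rows. Median centring, quantile normalization and cyclic loess each kept the same 9 falls, and 0 members rose under any alternative. Leaving out an array or adding the block leaves 1 residual degree of freedom, and testing all rows adds tests; the cause of the other changes was not tested.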

Other observations

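The order of the 2 replicates of a genotype was counted along the set, and no difference from all genes was tested. Wild-type array 1 read higher than array 2 for 28 of 43 members (65.1%), against 49.2% of all genes, and deficient array 1 read higher than array 2 for 18 of 43 (41.9%), against 50.4%. The median SD between wild-type arrays was 0.091 over members and 0.079 over all genes, and between deficient arrays 0.144 and 0.089.

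Most members that fell were of higher intensity. Of the 28 members whose mean lay above the median of all genes, 8 fell, and of the other 15, 1 fell (Oasl2), while 1.89% and 0.207% of all genes in these ranges fell. The median log2 fold changes of these members were -0.61 and -0.15.

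For 2 members with a second row, the rows agreed in sign. Ifi35 had log2 fold changes of -0.42 and -0.21, and Lgals3bp of -0.19 and -0.20.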
